A study of Homo sapiens with 12 samples.

Results

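The first hour of transcription block was examined by comparing 6 of the 12 libraries of the series, the 3 taken after 1 h of actinomycin D and the 3 taken at 0 h. Of 26334 listed genes, the 12032 with a mean of 10 counts or more in the 12 libraries were tested, and no change between time points was used to choose them. The cells were shA673-1c, a derivative of the Ewing sarcoma line A673, an established bone and soft tissue tumour line that carries the EWSR1-FLI1 fusion. They were grown in high-glucose DMEM in 6-well plates with blasticidin and zeocin at every time point, so both selection drugs were shared by the 2 groups. The labels do not say which vectors the drugs selected. Actinomycin D was used at 5 µM for 0, 1, 2 or 4 h, and each time point had 3 biological replicates. The labels do not say whether the 0 h wells received vehicle. Total RNA was converted with a stranded kit that selects polyadenylated RNA, and the values are read counts per gene. Because the cells were 1 derivative of 1 line, the replicates describe the spread between cultures of that derivative only.

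Actinomycin D intercalates into DNA and stops elongation by RNA polymerases, so RNA that is already made is degraded without being replaced. Transcripts of immediate early genes, feedback inhibitors and many transcription factors are known for very short lifetimes, and many of them carry AU-rich elements in the 3′ untranslated region (3′UTR) that recruit decay factors. Messenger RNAs for metabolic enzymes, ribosomal proteins and structural proteins are known for long lifetimes.

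AU-rich stretches of 7 transcripts are shown as examples. All 7 hold TATTTAT, so they do not show how common it is among early losses. Each line holds 27 bases of the 3′UTR of the annotated transcript (GENCODE 44, human build GRCh38), 5′ to 3′ on the transcript strand, and the capitals mark each copy of the letters TATTTAT or ATTTA, with copies that run into each other joined.
SOCS3: actttgcacaTATTTATATTTATattc
ADRB1: ttaaacagctTATTTATgtatcaatat
C2orf69: aaattgagcaTATTTATgtatattgga
IER3: tcctaattaaTATTTATatgTATTTAT
SPRY2: gtgtaaagaaTATTTATttgaagtttt
JUN: tgcttatgaaTATTTATaacagcattc
FOS: gtttttaATTTATTTATtaagatggat
The SOCS3 stretch covers bases 1559 to 1585 of a 3′UTR of 1640 bases on chromosome 17, and the ADRB1 stretch covers bases 752 to 778 of 1338 on chromosome 10. The C2orf69 stretch covers bases 896 to 922 of 2387 on chromosome 2, and the IER3 stretch covers bases 256 to 282 of 737 on chromosome 6. The SPRY2, JUN and FOS stretches cover bases 609 to 635 of 782 on chromosome 13, 1229 to 1255 of 1284 on chromosome 1 and 637 to 663 of 806 on chromosome 14. TATTTAT was read on the transcript strand only and was present in 37.4% of the 3′UTRs of all tested genes. Of the 12 lowest genes by rank named below, 10 had an annotated 3′UTR, and 5 of these held TATTTAT. They were SOCS3, ADRB1, C2orf69, IER3 and SPRY2, all shown here. A match describes the letters and is not evidence of a working element.

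The libraries were close in depth. Total counts were 9867835 to 10739324 at 0 h and 9972991 to 10477433 at 1 h, and the 10 highest genes took 4.92% to 5.50% of the counts in these 6 libraries. Levels are given as counts-per-million values (CPM) after scaling by trimmed mean of M-values (TMM). The table holds no added standard RNA, so every change is relative to the other genes of the same library, and a fall in total mRNA per cell cannot be told apart from no fall. Replicates with the same number deviated together, so the number was kept as a block in the fit. Of the Ewing sarcoma genes listed for a check of the cell type, CD99 was listed at 0 in every library, against its known role as a surface marker of this tumour. The other 17 passed the count filter.

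After 1 h, 1261 genes were lower and 744 were higher than at 0 h (edgeR quasi-likelihood test with the replicate block, Benjamini-Hochberg adjusted p below 0.05). These were 10.5% and 6.18% of the genes tested. Most changes were small. The median lower gene kept 78.7% of its 0 h level, the median higher gene stood at 115.5%, and the median of all genes moved by −0.02 on the log2 scale. Only 65 lower genes had lost more than 1 log2 unit, and 9 higher genes had gained that much. The 3 values at 1 h lay below all 3 values at 0 h for 968 of the lower genes and above them for 447 of the higher genes, against 12.7% and 6.78% of all genes with such separation. All 3 pairs moved the same way for 1231 of the lower and 729 of the higher genes. The call itself used these pairs, so this agreement is not separate support, and the share over all genes was not counted. Without the replicate block the counts were 269 lower and 42 higher, with the DESeq2 Wald test 563 and 368, and without replicate 3 they were 657 and 385. Without replicate 2, 338 were higher. When GAPDH and ACTB set the scale, the median of all genes moved to −0.14, 4444 genes were lower and 165 higher, and 3.58% of the called genes were higher in place of 37.1%. With only the 6 libraries in the fit, 1096 were lower and 1077 higher, and 49.6% of the called genes were higher.

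**Figure D1:**
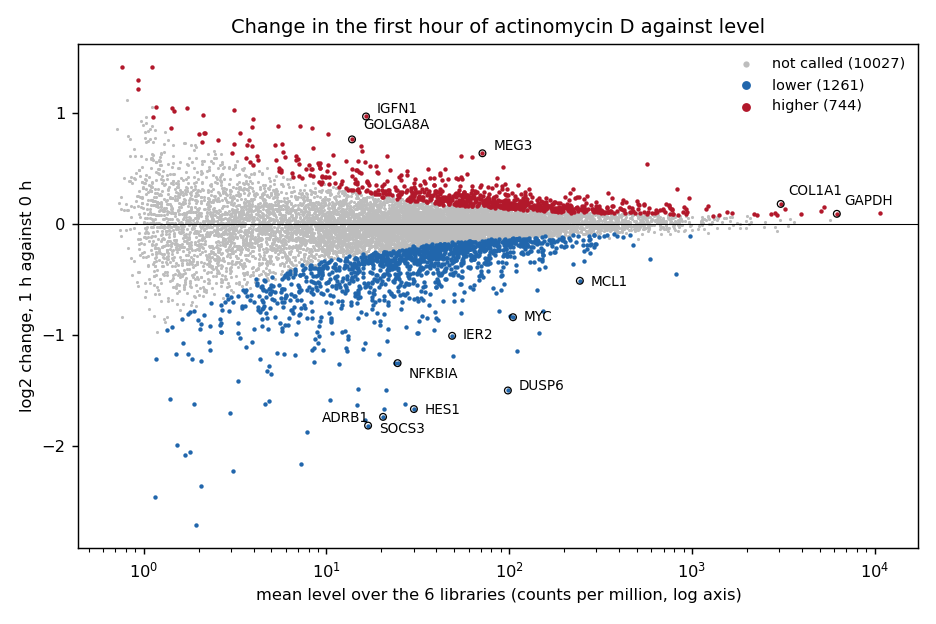
Log2 change of each tested gene at 1 h against 0 h (vertical axis) against its mean level over the 6 libraries in CPM (horizontal log axis), with the 1261 lower and 744 higher genes coloured. Losses reach −2.72 and gains reach 1.41, and most called genes lie within 1 log2 unit of 0.

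The 12 lowest genes by rank, taken among called genes that averaged at least 50 counts and moved the same way in all 3 pairs, were SOCS3, MIR22HG, ADRB1, TRIB1, HES1, C2orf69, GADD45B, DNM3OS, DUSP6, IER3, ID1 and SPRY2. They include feedback inhibitors of cytokine and growth factor signalling, transcription factors and a pair of noncoding RNA hosts of microRNAs. All 12 separated the 2 groups with no overlap, beside 12.7% of all genes. They were ranked on these same values, so the separation is not separate support. Each kept between 28.3% and 41.5% of its 0 h level.

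SOCS3, which inhibits cytokine receptor signalling through JAK kinases, had 31.1, 25.9 and 22.1 CPM at 0 h and 7.66, 8.74 and 5.99 CPM at 1 h. The change was −1.82 ± 0.11 on the log2 scale (SE, n = 3 per group, edgeR adjusted p = 3.01e-13). Every 1 h value was less than the lowest 0 h value by a wide margin, and its AU-rich stretch is the first shown above. ADRB1, the beta-1 adrenergic receptor, had 30.2, 32.2 and 31.9 CPM at 0 h and 10.2, 9.33 and 8.62 CPM at 1 h, a change of −1.74 ± 0.10 (edgeR adjusted p = 1.26e-13). The replicates lay close together on both sides. DUSP6, a phosphatase that switches off ERK, had 149.7, 151 and 135 CPM at 0 h and 56.6, 54.7 and 43.0 CPM at 1 h, a change of −1.50 ± 0.06 (edgeR adjusted p = 9.51e-18). It had the smallest standard error of the 12, and its groups lay far apart.

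HES1, the repressor induced by Notch, had 37.6, 47.7 and 52.0 CPM at 0 h and 14.3, 18.5 and 10.7 CPM at 1 h. The third replicate held the highest value before the block and the lowest after it. GADD45B, a stress-induced signalling protein, had 48.7, 43.1 and 29.7 CPM at 0 h and 15.7, 16.1 and 7.81 CPM at 1 h. Here replicate 3 was low at both times, and the ratio within each pair was similar. TRIB1, a pseudokinase scaffold, had 33.0, 33.7 and 27.3 CPM at 0 h and 11.3, 11.5 and 6.90 CPM at 1 h. The noncoding RNA MIR22HG, host of a microRNA, had 30.5, 23.7 and 21.5 CPM at 0 h and 8.91, 8.15 and 5.17 CPM at 1 h, again with no overlap. DNM3OS, another microRNA host, had 15.6, 14.5 and 17.3 CPM at 0 h and 3.26, 3.83 and 8.62 CPM at 1 h, with replicate 3 keeping more than the others.

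Of 5 short-lived genes used to check the time labels, 4 were lower at 1 h and FOS did not pass. MYC, the growth-promoting transcription factor, had 139, 143 and 121 CPM at 0 h and 80.7, 83.9 and 61.6 CPM at 1 h, a change of −0.84 ± 0.06 (edgeR adjusted p = 9.28e-12). JUN had 48.1, 42.4 and 33.3 CPM at 0 h and 25.9, 23.5 and 13.9 CPM at 1 h. IER2 had 74.2, 63.2 and 58.1 CPM at 0 h and 36.5, 31.6 and 28.9 CPM at 1 h. Both were near 50% of the 0 h level, 50.6% for JUN and 49.6% for IER2, and neither overlapped. EGR1 kept 45.5%. FOS was scarce from the start, with 2.26, 1.64 and 1.87 CPM at 0 h and 2.01, 1.37 and 0.908 CPM at 1 h. Its groups overlapped and its change of −0.44 ± 0.30 did not pass (edgeR adjusted p = 0.348), at a mean of 12.3 counts. GAPDH and ACTB, long-lived transcripts often used as references, were slightly higher, at 106% and 111% of the 0 h level, with overlapping values.

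**Figure D2:**
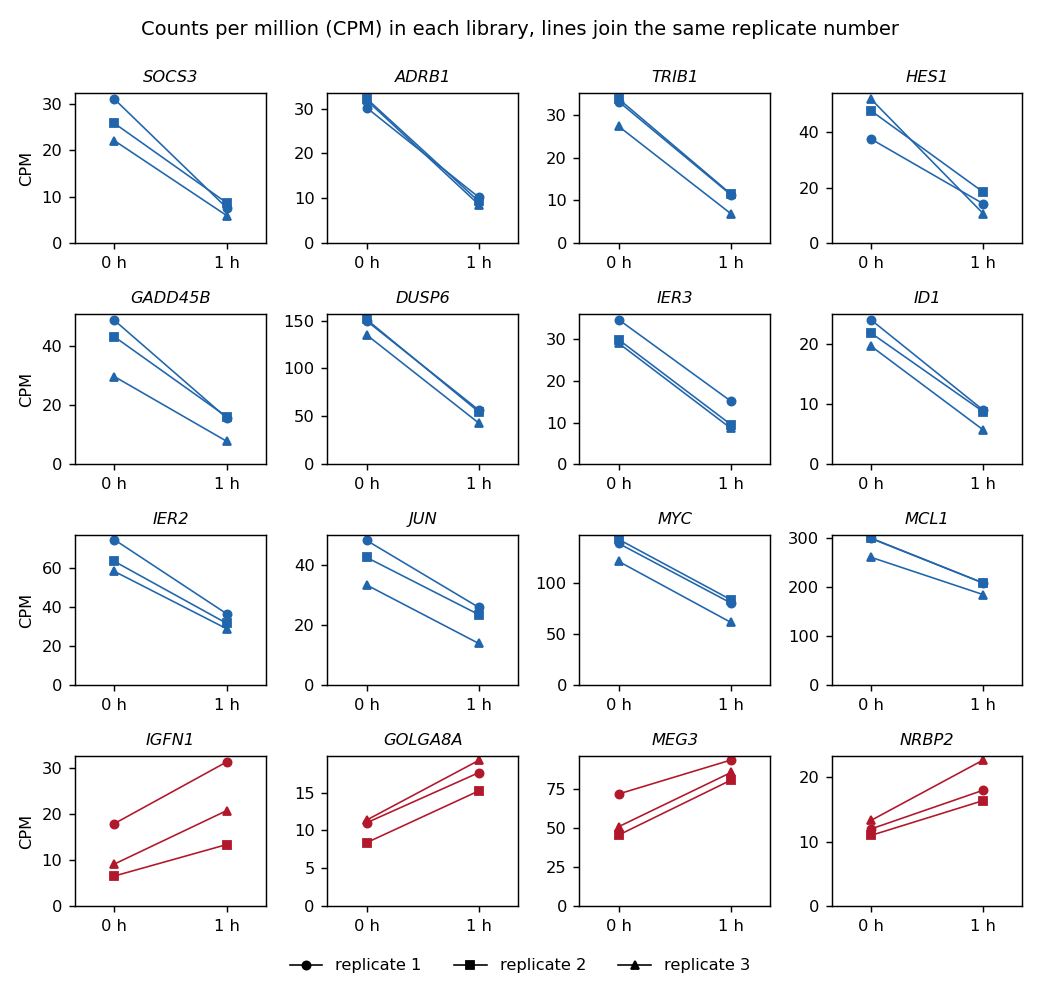
CPM (vertical axes, from 0) of 16 named genes in each library at 0 h and 1 h, 1 point per library, with lines joining the same replicate number. SOCS3 falls from 22.1 to 31.1 CPM down to 5.99 to 8.74 CPM, whereas MEG3 climbs from 45.6 to 71.9 CPM up to 80.7 to 93.6 CPM.

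Immediate early genes had the highest share of losses of the lists examined, 79.2% of those tested, beside 10.5% of all genes. Of 24 tested immediate early genes outside the AP-1 family, 19 were lower and none higher, and the list median was −0.70 beside −0.02 for all genes. The losses covered all 5 matricellular and stress genes, 9 of 10 IER-type and other nuclear proteins, and 5 of 8 zinc finger factors. IER5L and SERTAD3, small nuclear regulators, kept 41.2% and 42.1% of the 0 h level. Without the block 10 of the 24 were lower. Of 12 AP-1 factors 6 were lower and none higher, with a median of −0.24, and all 3 members of the JUN family were among them. Only 1 of the 12 was lower without the block, and with DESeq2 3 were. JUNB stood at 61.9% and FOSL1 at 75.3% of the 0 h level, and FOSL1 overlapped between the groups because its replicates differed widely at both times.

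Negative feedback genes of several pathways were also lower. Among 17 ERK feedback genes 12 were lower (70.6%, beside 10.5% of all genes) and 1 higher (5.88%, beside 6.18%). Their median was −0.26, and the dual-specificity phosphatases made up 7 of the 12. DUSP1 had 13.6, 13.3 and 10.1 CPM at 0 h and 3.93, 3.93 and 2.27 CPM at 1 h, a change of −1.87 ± 0.17 (edgeR adjusted p = 1.37e-09). This was a larger loss than that of SOCS3, in a gene whose mean of 44.6 counts kept it out of the ranking. The higher member was ETV4, an ETS transcription factor, at 0.28 on the log2 scale (edgeR adjusted p = 0.0443), a call that was lost when any 1 replicate was left out. All 4 ID proteins, which block DNA binding by helix-loop-helix factors, and 6 of 9 SMAD pathway inhibitors were lower, with a joint median of −0.53. SMAD7, which blocks TGF-beta receptors, had 9.15, 8.78 and 6.66 CPM at 0 h and 3.74, 3.54 and 3.54 CPM at 1 h, and the 1 h values were almost equal. Of 6 SOCS genes 4 were lower, with SOCS5 at 69.4% of the 0 h level and SOCS4 at 87.6%. Without the block 5 of the 17 ERK feedback genes, 6 of the 13 ID and SMAD genes and 2 of the SOCS genes were lower, and none was higher.

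Within the NF-kappaB pathway 2 of 11 genes were lower (18.2%, beside 10.5% of all genes), both of them inhibitors. NFKBIA, the inhibitor that holds NF-kappaB in the cytoplasm, had 34.3, 36.2 and 33.1 CPM at 0 h and 15.6, 15.4 and 12.4 CPM at 1 h, a change of −1.26 ± 0.09 (edgeR adjusted p = 5.19e-12). TNFAIP3, a ubiquitin-editing inhibitor, stood at 63.8%, and its call was lost without the block, with DESeq2 and without any 1 of the replicates. In the BCL2 family 2 of 12 genes were lower (16.7%), the survival proteins MCL1 and BCL2. The call of BCL2 was lost without the block, with DESeq2 and without replicate 2 or 3. MCL1 had 299, 299.8 and 261 CPM at 0 h and 208, 208 and 185 CPM at 1 h, so that 70.0% remained. Of 5 Notch target factors HES1 and NRARP were lower, and the call of NRARP was lost without the block, with DESeq2 and without any 1 of the replicates. Of 15 circadian genes 2 were lower (13.3%, near the share of all genes), BHLHE40 at 57.0% and NFIL3 at 67.5% of the 0 h level.

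Among integrated stress response genes 7 of 11 were lower (63.6%, beside 10.5% of all genes) and 1 was higher (9.09%, beside 6.18%). Their median was −0.31, and without the block 4 were lower and none higher. DDIT4, an inhibitor of mTORC1, stood at 45.4% of the 0 h level, and DDIT3, which encodes the factor CHOP, had a change of −0.74 on the log2 scale. The higher gene was ATF5 at 0.13, a call that was lost without any 1 of the replicates. The TTP family of decay factors, which bind AU-rich elements, was lower in 3 of 3 members, with ZFP36 at 50.7%, ZFP36L2 at 67.4% and ZFP36L1 at 74.2%. Without the block only ZFP36L1 kept the call, and ZFP36 also lost it with DESeq2 and without replicate 1 or 2. The other AU-rich binders showed 1 gain and no loss in 5. Of the 14 P-TEFb and pause control genes 6 were lower (42.9%) and 1 was higher (7.14%), SUPT5H. The lower genes included the cyclins CCNT1 and CCNT2 and the capping enzyme of 7SK RNA, MEPCE. Without the block none of the 14 passed in either direction by edgeR, and with DESeq2 3 were lower and 1 higher. Of 6 kinases that phosphorylate splicing factors CLK1 and CLK4 were lower, with changes of −0.35 and −0.39, and of 12 SR proteins 1 was lower. Both kinases lost the call without the block and without replicate 3, and CLK4 also without replicate 2 and with DESeq2.

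Genes of stable functions moved little. Of all genes tested 10.5% were lower and 6.18% higher. None of 17 glycolysis enzymes was lower and 8 were higher (47.1%), with a median of 0.08. GPI, the isomerase of glucose 6-phosphate, had 445, 455 and 486 CPM at 0 h and 551, 503 and 542 CPM at 1 h, and ALDOA, the aldolase, stood at 111%. Without the block none of the 17 passed, and with DESeq2 6 were higher. Of 79 cytosolic ribosomal protein genes 2 were lower (2.53%) and 8 higher (10.1%), with a median of 0.02. Of 77 nuclear-encoded respiratory chain genes 3 were higher (3.9%) and none lower. Of 76 mitochondrial ribosomal protein genes 3 were lower (3.95%) and 1 higher (1.32%). Tubulins, proteasome subunits and translation factors had medians of 0.04, −0.02 and 0.02. All these lists depended on the scale. With GAPDH plus ACTB scaling, which moved the median of all genes to −0.14, 3 of 17 glycolysis enzymes, 45 of 79 cytosolic ribosomal protein genes, 29 of 77 respiratory chain genes and 36 of 76 mitochondrial ribosomal protein genes were lower and none was higher. The medians were then −0.039, −0.096, −0.095 and −0.17. GAPDH is itself among the 17 glycolysis enzymes, so for that list the scale is not independent of its members.

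**Figure D3:**
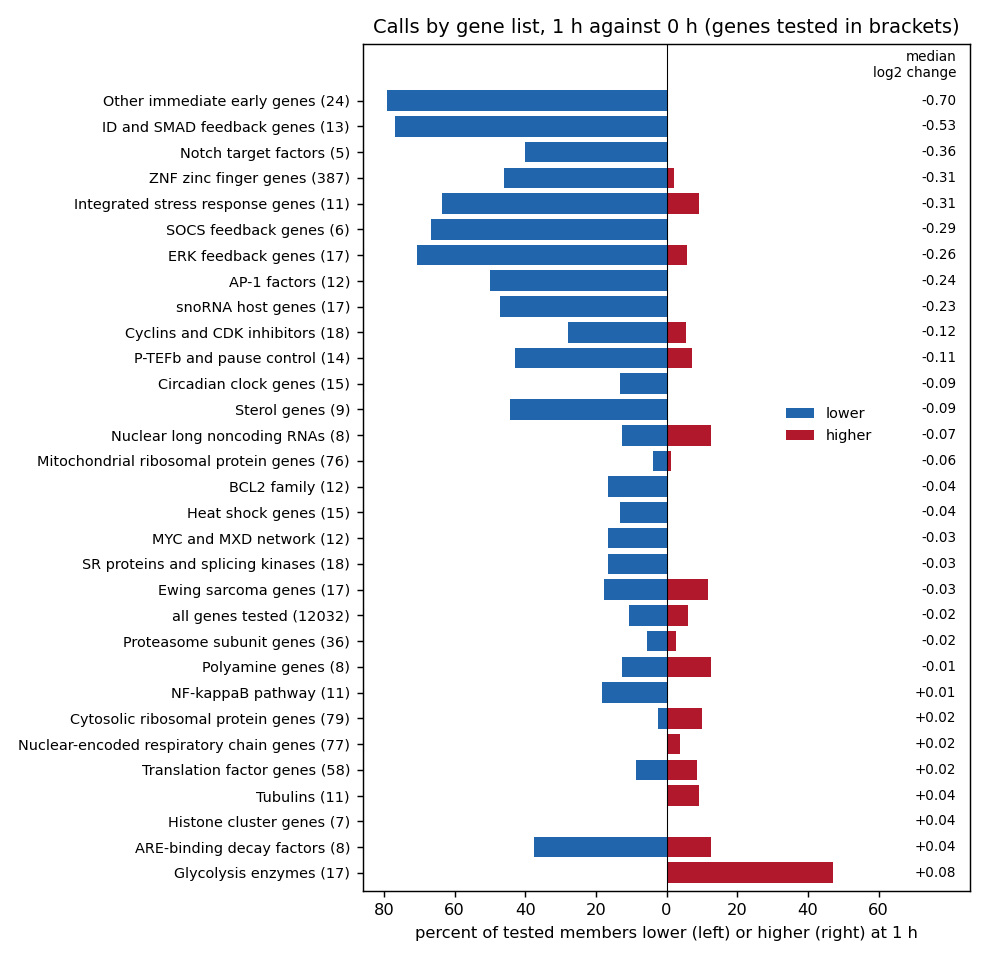
Percent of the tested members of each gene list that were lower (left bars) or higher (right bars) at 1 h against 0 h, with the number tested in brackets and the median log2 change at the right. Immediate early genes reach 79.2% lower at the top, glycolysis enzymes reach 47.1% higher at the bottom, and all genes show 10.5% lower and 6.18% higher.

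Genes named ZNF, most of which encode zinc finger proteins that bind DNA, made up a large group of losses. Of 387 tested 178 were lower and 8 higher, with a median of −0.31. With a filter at a mean of 50 counts, 132 of 276 were lower and 9 higher, with a median of −0.24. The 169 on chromosome 19, where KRAB zinc finger genes form clusters, had 98 lower (58.0%) and a median of −0.49, and the 212 on other chromosomes had 80 lower (37.7%) and a median of −0.22. The 646 other genes of chromosome 19 had 25 lower (3.87%) and 128 higher (19.8%). ZNF57 had 3.34, 5.50 and 4.89 CPM at 0 h and 1.53, 1.37 and 1.27 CPM at 1 h, so that 30.6% remained. ZNF14 had 7.38, 8.10 and 5.42 CPM at 0 h and 2.97, 2.26 and 1.54 CPM at 1 h. Neither gene overlapped between the groups. Among the 8 gains ZNF785 stood at 149% and ZNF276 at 129%. Without the block 59 of the 387 were lower and none higher. Because ZNF genes of one cluster are similar in sequence, reads may be split between them, and single values are uncertain to that extent.

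Noncoding RNAs split between loss, no call and gain. Of 17 hosts of small nucleolar RNAs (snoRNAs) 8 were lower (47.1%, beside 10.5% of all genes) and none higher. Their median was −0.23, and 3 were lower without the block. SNHG12 had 20.4, 25.4 and 20.5 CPM at 0 h and 10.5, 11.3 and 9.53 CPM at 1 h, so that 47.4% remained, and SNHG3 stood at 71.4%. GAS5, a host whose spliced RNA is known to be degraded in translation, did not pass, with a change of −0.04. The nuclear RNAs MALAT1, NEAT1 and KCNQ1OT1 did not pass either, with changes of −0.13, −0.01 and −0.17. MIR17HG, which carries the miR-17 cluster, had 4.13, 2.32 and 3.91 CPM at 0 h and 1.05, 0.295 and 0.635 CPM at 1 h. The remainder was 19.4%, at a mean of only 11.8 counts.

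In the main run gains were fewer and smaller than losses. The balance of numbers depended on the fit and the scale. It was 1096 lower and 1077 higher with only the 6 libraries, and 4444 and 165 with GAPDH plus ACTB scaling. The noncoding RNA MEG3, from an imprinted locus, had 71.9, 45.6 and 51.0 CPM at 0 h and 93.6, 80.7 and 85.6 CPM at 1 h, a change of 0.63 ± 0.07 (edgeR adjusted p = 2.38e-08). Its lowest 1 h value was above its highest 0 h value. The 12 highest genes by rank were IGFN1, PABPC1L, MAMDC4, IL18BP, AMH, PDXDC2P, GOLGA8A, C5orf45, BRICD5, GUSBP11, CSAD and NRBP2. Of these 9 did not overlap, beside 6.78% of all genes, and they too were ranked on the same values.

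AMH, a hormone of the TGF-beta family, had 6.20, 4.82 and 6.66 CPM at 0 h and 10.5, 9.13 and 12.5 CPM at 1 h, a change of 0.87 ± 0.15 (edgeR adjusted p = 6.5e-05). GOLGA8A, a golgin, had 11.01, 8.39 and 11.4 CPM at 0 h and 17.6, 15.2 and 19.2 CPM at 1 h, a change of 0.76 ± 0.10 (edgeR adjusted p = 2.7e-06). IGFN1 had 17.9, 6.56 and 9.15 CPM at 0 h and 31.2, 13.4 and 20.7 CPM at 1 h. Its groups overlapped because replicate 1 was high at both times. Every pair rose, which the ranking required. NRBP2, a pseudokinase, had 11.998, 10.997 and 13.3 CPM at 0 h and 18.0, 16.4 and 22.7 CPM at 1 h. GOLGA8A has near-identical copies and PDXDC2P and GUSBP11 are named as pseudogenes, so reads may be shared between copies. Of the 12, AMH, GOLGA8A and PDXDC2P were called under every alternative tried, and 6 lost the call without the block (IGFN1, PABPC1L, MAMDC4, IL18BP, BRICD5 and CSAD). GUSBP11 and NRBP2 lost it without the block only when an offset for GC content and length was added. Without replicate 3, MAMDC4, BRICD5, PABPC1L and C5orf45 lost it.

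The lower and the higher genes differed in the annotated features of their transcripts, a description that the choice of genes did not use. Median GC content was 43.5% for the lower genes and 59.6% for the higher genes, beside 47.9% for all. The median number of exons was 5 for the lower genes, 14 for the higher genes and 9 for all. The 3′UTR had a median length of 1988 bases in the lower and 731 bases in the higher genes, beside 1406 for all. TATTTAT was present in 51.9% and 17.7% of these 3′UTRs, beside 37.4% for all. Longer 3′UTRs are more likely to hold a copy. Per kilobase of pooled 3′UTR there were 0.41 copies in the lower, 0.19 in the higher and 0.33 in all genes. Single-exon genes made up 7.4% of the lower and 0.543% of the higher genes. Features were matched for 98.1% of the tested genes through symbols in GENCODE 44.

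The share of lower genes fell with exon number within each GC class and with GC content within each exon class. The share of higher genes rose with exon number only above a GC content of 45%, and at 45% or less it was 0.877%, 0.266% and 0.63% from few to many exons. Of 228 genes with 1 to 2 exons and GC up to 45%, 39.0% were lower, and of 1837 genes with 9 or more exons and GC over 55%, 1.03% were lower and 25.5% higher. Among genes with 3 to 8 exons and GC up to 45%, 118 of 196 ZNF genes were lower (60.2%), compared with 284 of 1681 others (16.9%). Across 11799 genes, Spearman's rho of the log2 change with GC content was 0.42, and it was 0.228, 0.401 and 0.341 within the 3 pairs. In the second hour it was 0.0242, and from 2 h to 4 h it was 0.25. Genes share the same 6 libraries, so these values describe the libraries. GC content of the fragments is also tied to how libraries are amplified. The part of this in the result was not tested beyond an offset for GC and length. Under the offset 1122 genes were lower and 563 higher with the block, and 248 and 21 without it. With the block, 942 of the 1122 and 303 of the 563 were also called in the main run, which had 1261 lower and 744 higher.

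The first hour was then set against the second in a test of the difference between the 2 changes, which share the 1 h libraries. The change in the first hour was lower than that in the second for 504 genes (4.19%) and higher for 818 (6.8%). Without the block these counts were 0 and 21 by edgeR (357 and 823 at an unadjusted p below 0.05), beside 158 and 371 by DESeq2 with the block. They were 121 and 336 without replicate 2, and 92 and 448 without replicate 3. When library totals set the scale they were 201 and 1165, and 85.3% of the called differences were then higher in place of 61.9%. A fall that was called at 2 h against 1 h and was steeper than in the first hour was found in 722 genes, 6.0% of those tested.

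Several early losses were steeper in the second hour. MYC changed by −0.84 in the first hour and −2.37 in the second, and the difference of 1.53 ± 0.13 passed (edgeR adjusted p = 3.2e-09). NFKBIA changed by −1.26 and then −3.04 (edgeR adjusted p = 9.85e-06 for the difference). SERTAD3 changed by −1.25 and then −3.32. IER2, JUN and DUSP6 followed the same order, with −1.01, −0.98 and −1.50 in the first hour and −1.94, −1.91 and −2.15 in the second. SOX2, a stem cell transcription factor, moved by −0.45 and then −1.74. For SOCS3, ADRB1 and GADD45B no difference passed (edgeR adjusted p = 0.681, 0.263 and 0.326). For SOCS3 it was 0.24 ± 0.29, an interval too wide to call the 2 hours alike.

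A smaller set lost more in the first hour. MIR22HG moved by −1.77 and then −0.95, and DNM3OS moved by −1.59 and then −0.41 (edgeR adjusted p = 0.0382 and 0.0175 for the differences). SNHG3 moved by −0.49 and then −0.13. Of the gains MEG3 moved by 0.63 and then 0.10, and GOLGA8A by 0.76 and then 0.09, and both differences passed (edgeR adjusted p = 0.00171 and 0.00857).

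The 2 h to 4 h interval compares other libraries. Both intervals come from 1 fit, so they share the estimated spread of each gene, the block and the count filter. A gene with many counts or little spread is easier to call in both. The part of this in the shares below was not tested. There, 25.3% of all genes were lower and 25.3% higher. Of the 1261 genes lower in the first hour, 781 were lower again (61.9% of them and 25.6% of the 3046 lower between 2 h and 4 h), compared with 22.4% of the genes not called in the first hour. Of the 744 genes higher in the first hour, 613 were higher again (82.4% of them and 20.1% of the 3050), compared with 23.9% of the genes not called. Without replicate 2 the genes called in both intervals were 518 lower and 282 higher, without replicate 3 they were 353 and 298, and without the block 108 and 36. Only 41 of the lower genes were higher in the later interval, and 16 of the higher genes were lower. Of the 12 highest by rank 10 were higher again. Of the 12 lowest 5 were lower again and none was higher.

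**Figure D4:**
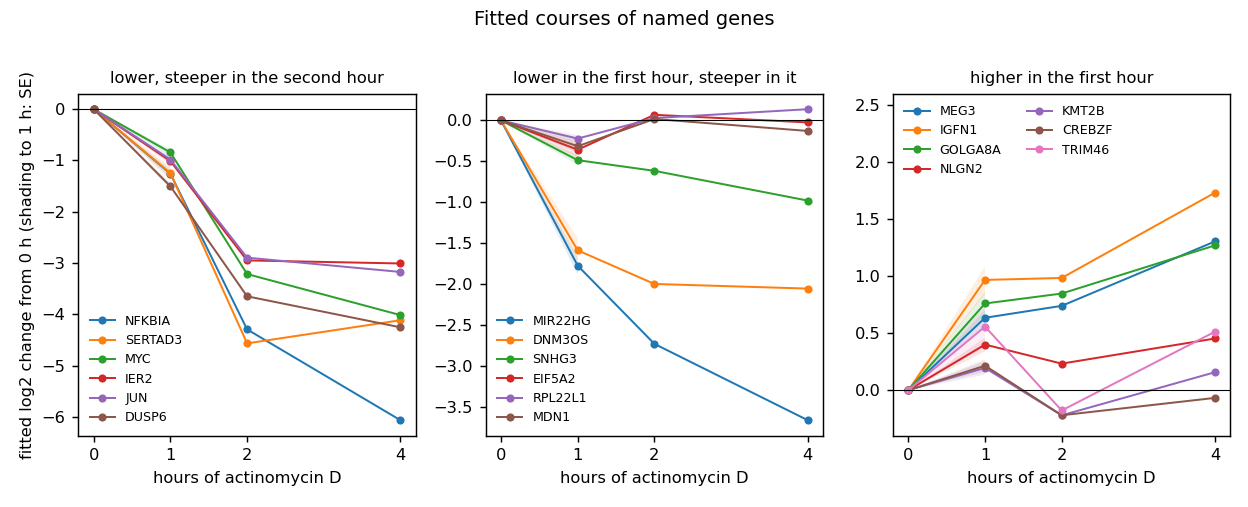
Fitted log2 change from 0 h (vertical axes) against hours of actinomycin D for named genes that were lower with a steeper second hour, lower with a steeper first hour, or higher in the first hour, with shading for the standard error up to 1 h. MYC goes from −0.84 at 1 h to its steepest fall of −2.37 in the second hour, and MEG3 gains 0.63, 0.10 and 0.57 over the 3 intervals.

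Of the 17 tested Ewing sarcoma genes 3 were lower (17.6%), 2 were higher (11.8%) and 12 did not pass. Among all genes 10.5% were lower and 6.18% higher. EWSR1 had 320.5, 344 and 290.3 CPM at 0 h and 340.0, 378 and 311 CPM at 1 h, with overlap, a change of 0.11 ± 0.03 (edgeR adjusted p = 0.0231) that was −0.01 with GAPDH plus ACTB scaling. FLI1, whose 3′ end is in the fusion transcript, had 77.8, 81.8 and 80.6 CPM at 0 h and 71.5, 73.8 and 70.9 CPM at 1 h. The 1 h values lay below those at 0 h, but the change of −0.15 ± 0.06 did not pass (edgeR adjusted p = 0.0839), and it was −0.51 in the second hour and −1.31 from 2 h to 4 h. Gene counts do not separate the fusion transcript from the normal EWSR1 and FLI1 genes. BCL11B and SOX2 were lower at 69.0% and 73.3%, NR0B1 was lower at 87.2% with overlap, and FOXM1 was higher at 117%. The call of NR0B1 was lost without any 1 of the replicates, that of EWSR1 without replicate 2 or 3, and that of SOX2 without replicate 3. Without the block BCL11B was the 1 gene of the list that passed.

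The summed level of the Ewing sarcoma genes was 3746 to 4059 CPM at 0 h and 3778 to 4076 CPM at 1 h. Of 16 markers of endothelial, blood, epithelial and fibroblast cells, 10 had at most 5 counts in every library and 2 passed the filter. Their summed level was 2869 to 3160 CPM at 0 h and 3266 to 3740 CPM at 1 h, and it came almost wholly from the collagen gene COL1A1, which was 0.18 higher on the log2 scale (edgeR adjusted p = 0.00074). None of the blood and endothelial markers passed the filter, and the part of other cells in the result was not tested.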

How the data were processed

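Polyadenylated RNA of shA673-1c cells was measured at 4 time points with 3 biological replicates each. The authors deposited whole-number read counts per gene symbol (26334 genes, of which 7397 had no count), not normalized; the submitters' processing notes name FastQC, STAR and hg19 without stating a role, and the counting program, its annotation and its strand setting are not given in the sources used here. Groups and replicate numbers came from the sample titles.

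Counts of the 12032 genes with a mean of at least 10 over the 12 libraries (99.86% to 99.89% of the counts) were scaled by TMM and fitted in edgeR 4.0.16 (R 4.3.3) with time as 4 groups and the replicate number as a block. Contrasts were 1 h against 0 h, 2 h against 1 h, 4 h against 2 h, and the first change minus the second, each with Benjamini-Hochberg adjustment over all tested genes and a threshold of 0.05. Replicates exceeded counting error by a chi-square of 3.205 to 8.578 per degree of freedom, and the common biological coefficient of variation was 0.0308. The filter kept a gene with a mean of 10.0 counts and dropped one with 9.917.

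Deviations from the group means of libraries with the same number correlated at 0.300 to 0.612 over 18 pairs. Those with different numbers correlated at −0.403 to 0.0842 over 36. Deviations cancel out within a time point, so the lower values partly follow from the higher ones. The numbers were taken to pair the libraries. Whether the number marks a day or a batch is not stated.

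Transcript features came from GENCODE 44 on GRCh38 by symbol and were not tied to hg19 coordinates. Named genes were the 12 lowest and 12 highest called changes with a mean of at least 50 counts and 1 direction in all pairs, 7 checks of the labels, up to 4 called genes with the largest changes per list and direction, up to 8 called genes per direction whose hours went opposite ways, and defining members. Genes and lists were chosen with earlier results of these data known. Alternatives were no block, only 6 libraries, DESeq2 1.42.0 size factors and its Wald test, library totals, GAPDH plus ACTB scaling, other count filters and each replicate left out. An offset for GC content and length, with and without the block, was added after seeing the data. The scripts were tested on simulated data for 1 h against 0 h, with 197 changed genes among 11982 tested. The right sign was recovered for 31 of 65 genes with a true log2 change of 0.25 and for 30 of 40 at 0.5. It was recovered for 40 of 41 at 1 and for 51 of 51 at 2. Of the 197 changed genes 77.2% were recovered, and false calls were 9.52%, beside an adjusted p threshold of 0.05. Tables were handled with Python 3.11.15 and pandas 2.3.3, and figures were drawn with matplotlib 3.10.9.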

Additional observations from a re-analysis of the deposited data

Results flagged for a closer look

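In a set of genes the first and the second hour went opposite ways, each change passed on its own, and the difference between them passed as well (edgeR quasi-likelihood test of the contrast with the replicate block, Benjamini-Hochberg adjusted p below 0.05). The 2 changes share the 1 h libraries, so an error in those libraries pushes them apart. Of these genes 46 were higher in the first hour and lower in the second, and 35 were lower and then higher. Between 2 h and 4 h, an interval measured in other libraries, 5 of the 46 were lower and 19 higher, and none of the 35 was lower and 12 were higher.

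The first change minus the second was 1.29 for TRIM46, 0.74 for MIR5047, 0.68 for C15orf52, 0.65 for TCF7L1, 0.65 for CREBZF, 0.61 for KMT2B, 0.57 for ZNF335 and 0.57 for NLGN2 on the log2 scale. CREBZF, a transcription cofactor, had 88.0, 88.8 and 91.0 CPM at 0 h and 98.7, 98.5 and 114 CPM at 1 h, with no overlap. KMT2B, a histone methyltransferase, overlapped at 86.8, 65.4 and 62.5 CPM at 0 h and 84.4, 82.3 and 78.0 CPM at 1 h. The first-hour call of all 8 was lost without the block. Without replicate 3 it was lost for all but NLGN2, without replicate 2 for TRIM46, MIR5047, TCF7L1, KMT2B and ZNF335, and without replicate 1 for TRIM46. TCF7L1, a repressor of Wnt targets, was lower again between 2 h and 4 h, at −0.31.

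In the other direction the difference was −0.78 for EIF5A2, −0.65 for MDN1, −0.61 for HERC1, −0.56 for UBE2D1, −0.53 for TIMM8B, −0.53 for HACE1, −0.47 for RPL22L1 and −0.46 for HIPK2. EIF5A2, a translation factor, had 16.2, 15.2 and 16.3 CPM at 0 h and 13.0, 11.3 and 12.9 CPM at 1 h, with no overlap. MDN1, a very large ATPase of ribosome assembly, had 222, 135 and 144 CPM at 0 h and 139, 147 and 114 CPM at 1 h. Its value in 0 h replicate 1 stood apart, as did those of HERC1 and HIPK2, and all 3 genes overlapped between the groups. The first-hour call of all 8 was lost without the block. It was lost for MDN1, HERC1 and HIPK2 without replicate 1 or 3, for EIF5A2 without replicate 2 or 3, for TIMM8B without replicate 1 or 2 and for UBE2D1 without replicate 2, and it held for HACE1 and RPL22L1.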

How the results depend on the processing

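Counts are given as lower then higher, beside 1261 and 744 at 1 h against 0 h, 504 and 818 for the first against the second hour, and 781 and 613 called again from 2 h to 4 h. Without the replicate block, although the numbers pair the libraries, they were 269 and 42, 0 and 21, and 108 and 36. With GAPDH plus ACTB scaling they were 4444 and 165, 281 and 745, and 3836 and 39. With the DESeq2 Wald test they were 563 and 368, 158 and 371, and 332 and 321. Library totals gave 201 genes with the lower change in the first hour. With the GC and length offset and no block, chosen after seeing the data, they were 248 and 21, 0 and 20 (338 and 723 at unadjusted p below 0.05), and 84 and 19, and with the block 1122 and 563, 592 and 754, and 705 and 459. Leaving out 1 replicate gave 657 to 944 and 338 to 616, 92 to 362 and 336 to 629, and 353 to 543 and 282 to 498. The cause of these shifts was not tested.

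Of 144 named genes called, 43 kept the call in all alternatives (40 lower, 3 higher), and 94 lost it without the block. With GAPDH plus ACTB scaling the sign turned for EWSR1 (−0.0084), GAPDH (−0.027), KHSRP (−0.0089), PSMD3 (−0.0033) and TUBB3 (−0.016). TUBB3 was also at −0.013 with the GC and length offset and the block and −0.014 without it. The depth and 3 replicates limit the precision for genes of low counts. The p-values of the main fit measure the spread left after the replicate block, estimated over the 12 libraries of 1 derivative. They do not measure the spread between replicate numbers, which the block takes out.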

Other observations

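The 7 genes whose log2 change was below −2, described after their values were seen, were all noncoding or uncharacterised by name. They were SNORD44 at −2.72, RPPH1 (the RNA part of ribonuclease P) at −2.46, MIR17HG at −2.37, SNORD36A at −2.23, LOC284454 at −2.17, SNORD81 at −2.09 and LINC01004 at −2.06. RPPH1 had 0.590, 4.34 and 0.977 CPM at 0 h and 0.575, 0.295 and 0.182 CPM at 1 h, so that its value rested mostly on 0 h replicate 2. SNORD44 had 3.93, 2.03 and 4.17 CPM at 0 h and 0.479, 0.295 and 0.726 CPM at 1 h, and SNORD36A had 4.82, 5.11 and 5.33 CPM at 0 h and 0.575, 1.28 and 1.36 CPM at 1 h. Neither overlapped, and both were scarce, at means of 10.9 and 19.8 counts over the 12 libraries. Of 29 tested genes with snoRNA names 10 were lower (34.5%, beside 10.5% of all genes) and none higher, with a median of −0.54. Most mature snoRNAs are cut from introns of their hosts and have no poly(A) tail, so counts given to them in these libraries cannot be told apart from unspliced host RNA.

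GAS5 and the entries in its introns were called differently, and the differences between them were not tested. SNORD44, SNORD81 and SNORD47, which lie in its introns, passed with −2.72, −2.09 and −0.71, and SNORD76, SNORD79 and SNORD80 did not, with −0.54, −0.58 and −0.38. GAS5 itself stood at 156, 182 and 154 CPM at 0 h and 156, 170 and 151 CPM at 1 h. At the other end, the 9 genes that gained more than 1 log2 unit were ABHD8, SLFNL1-AS1, DNASE1L2, HIF3A, LAG3, SAP25, LOC100506472, CPT1B and TMEM249, the last at 1.41, and all were scarce.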
